A study of Mus musculus with 3 samples.

Results

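Autophagy genes were followed in bone marrow stem cells of the long-term class (LT-HSCs), which renew themselves and keep all blood lineages supplied, in control mice, mice that had lost Atm and mice meant to have lost both Atm and p38α. The set was fixed by gene name, though with earlier results of these data known. It holds 38 genes that run from the kinases starting autophagy to the lysosomal proteins ending it, of 37325 genes on the array, and each gene was read by the brightest of its probes, with its other probes as a check. All 38 genes were well above background on all 3 arrays at the brightest probe. In the order of the groups above, 73.3%, 68.9% and 77.7% of all probes were well above background. Of all probes of the 38 genes 97.8%, 92.3% and 96.7% were. The share of all genes at their brightest probe is not given, so the count of 38 does not set these genes apart.

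Macroautophagy encloses cytoplasm, mitochondria or protein aggregates in a double membrane, the autophagosome, and delivers them to the lysosome for breakdown. A kinase complex starts it, a lipid kinase complex marks the membrane with PI3P, and ubiquitin-like conjugation then attaches LC3 and GABARAP proteins to the growing membrane, where cargo receptors bind them. HSCs are known to depend on autophagy for their quiescence and for keeping their mitochondria few, and ATM and p38 are among the stress kinases that have been linked to its control.

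The study set the arrays side by side to ask how p38α acts in HSCs without Atm. WT, AtmsKO and Atmp38dKO mice were C57BL/6J animals, 11 weeks old by the sample labels. AtmsKO mice carried CAG-CreERT2 with Atmflox/flox, and Atmp38dKO mice carried in addition p38αflox/flox. In these mice tamoxifen (TAM), given at about 5 weeks of age and 4 weeks before analysis by the series text, set off the deletion, a schedule that does not add up to the labelled age. Controls in the study also received TAM and carried floxed alleles without Cre. The CAG promoter drives CreERT2 throughout the body, so the loss was not restricted to blood cells. Sorted bone marrow cells were CD150+CD48-Flt3-CD34- LSK by the labels, that is, lineage-negative, Sca-1-positive and c-Kit-positive. A single Agilent array was hybridized per genotype with its Cy3-labelled total RNA, and how many mice each array stands for is not given. With 1 array per group there was no replicate check and no p-value, and every difference compares those arrays, not the conditions.

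Atm, the targeted gene of both mutants, was read by 2 probes, with log2 differences from the WT array of -1.79 and -2.37 for AtmsKO and of -0.22 and -1.07 for the array with the Atmp38dKO label. Mapk14, the gene of p38α, was also read by 2 probes, and its differences on the Atmp38dKO array were 0.18 and 0.01. Mapk14 was thus not lower where the label says it was deleted, and this array is therefore named the Atmp38dKO-labelled array. The deleted exons are not given, and a probe outside them checks nothing. Of 12 HSC markers, all were well above background on every array. On the Atmp38dKO-labelled array 10 of the 12 were below the WT array, by a median log2 difference of -0.25, and the summed signal of these markers over the 75th percentile was 146 on the WT, 148 on the AtmsKO and 131 on the Atmp38dKO-labelled array. The same sum, in the order WT, AtmsKO and Atmp38dKO-labelled, was 2.49, 2.61 and 3.13 for 6 erythroid markers, of which 4 were above WT for AtmsKO (median 0.56) and all 6 for the Atmp38dKO-labelled array (median 0.46). It was 30.5, 35.9 and 35.4 for 8 granulocyte markers, of which 7 and 6 were above WT (medians 0.28 and 0.16). It was 28.3, 24.1 and 23.4 for 7 macrophage markers, and of the 6 that could be compared 1 and 2 were above WT (medians -0.31 and -0.59), Adgre1 being at -1.16 for AtmsKO and not well above background on the Atmp38dKO-labelled array, while Mrc1 was not well above background on any array. It was between 6.08 and 6.38 for 7 B cell markers, between 6.68 and 7.81 for 6 T cell markers and between 17.6 and 19.7 for Cd34, Flt3 and Cd48, the markers the sort was meant to be free of, which were all well above background, Cd34 with signals of 1694, 1666 and 2185. For 5 megakaryocyte markers it was 16.3, 30.5 and 19.1, which follows Pf4 (signals of 1020, 2366 and 1536), and the medians of the list against WT were 0.01 and 0.00. The part of these shifts in the values below was not tested, and in such bulk RNA fewer cells of a type and less RNA per cell cannot be told apart.

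Signals are given in intensity units of the scanner before scaling. A log2 difference is the difference of scaled signals, each array having been scaled to its 75th percentile, which lay at 102 on the WT, 96.2 on the AtmsKO and 118 on the Atmp38dKO-labelled array. Equal signals on 2 arrays therefore need not give a difference of 0. Where 3 signals follow a gene's name, they stand in the order WT, AtmsKO and Atmp38dKO-labelled, and where 2 differences from WT follow, AtmsKO comes before the Atmp38dKO-labelled array. Levels of different genes come from different probes and were not set against each other. Between spots of the same probe on an array the median SD was 0.05 on the log2 scale, which covers the array itself and not the mice.

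As a group the autophagy genes lay close to the median of all genes. Their median log2 difference was -0.06 for AtmsKO against WT, -0.02 for the Atmp38dKO-labelled array against WT and -0.02 between both mutant arrays, where the median of all genes was 0.01, 0.02 and -0.00. Of the 38 genes 18 were higher and 20 lower on the AtmsKO array than on the WT array, and 17 were higher and 21 lower on the Atmp38dKO-labelled array. Of all genes 51.0% and 52.2% were higher in these comparisons, and 49.5% were higher on the Atmp38dKO-labelled than on the AtmsKO array. These shares belong beside every count of direction, for steps, lists and markers alike. Over the 3 arrays 25 of the 38 genes stayed within a 1.5-fold range. A range of at least 2-fold was reached by 3 genes, Nbr1, Uvrag and Ulk2. The range over the 3 arrays was not counted for all genes, so these counts do not set the members apart.

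Few members passed 2-fold, at shares near those of all genes. On the AtmsKO array 1 member was at least 2-fold higher than on the WT array (Uvrag) and 1 was at least 2-fold lower (Nbr1), where 3.97% and 4.12% of all genes tested were. The array labelled Atmp38dKO had 1 member at least 2-fold higher (Uvrag) and 2 at least 2-fold lower (Ulk2 and Nbr1) than the WT array, beside 4.06% and 4.52% of all genes. Between the mutant arrays no member differed by 2-fold, and 3.79% and 3.73% of all genes were higher and lower on the Atmp38dKO-labelled array. At 1.5-fold, AtmsKO against WT had 4 members higher and 3 lower, beside 10.1% and 10.2% of all genes. For the Atmp38dKO-labelled array against WT 4 were higher and 5 lower, beside 11.0% and 10.7%. Between both mutant arrays 3 were higher and 1 lower on the Atmp38dKO-labelled array, beside 10.1% and 8.86%. For 38 genes shares of this size amount to between 1 and 5 genes, so the counts do not set the autophagy genes apart. Both comparisons with WT share the WT array, so a gene that was high or low there shows the same direction in each.

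**Figure D1:**
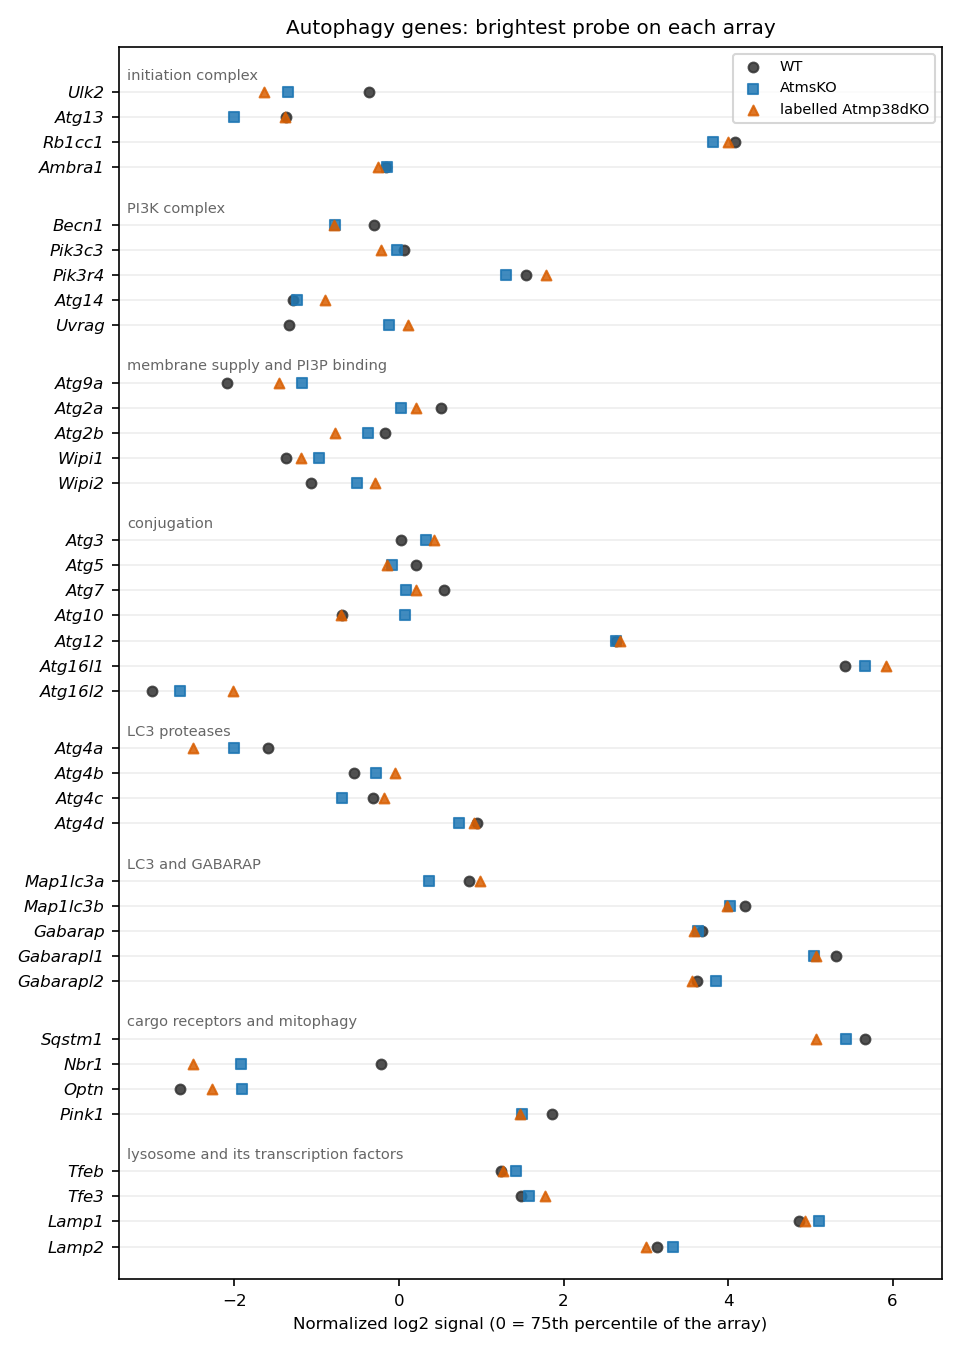
Normalized log2 signal (x axis, 0 is the array's 75th percentile) of the brightest probe of each of the 38 autophagy genes (y axis, grouped by step), with 1 mark per array (circle WT, square AtmsKO, triangle the Atmp38dKO-labelled array). Marks are to be compared within a gene. For 25 genes all 3 lie within a 1.5-fold range, a count that was not made for all genes. Nbr1, Uvrag and Ulk2 have the WT mark apart from both mutant marks.

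The differences were largest where the signal was low. Among genes with a mean signal under 50, 30.4% of all genes passed 1.5-fold between the AtmsKO and WT arrays, and 4 of 8 members did. From 50 to 200 the share was 18.2% of all genes and 3 of 16 members, from 200 to 1000 it was 6.73% and 0 of 6, and above 1000 it was 0.819% and 0 of 8. For the Atmp38dKO-labelled array against WT the shares were 31.5%, 17.8%, 7.83% and 2.16% of all genes in the same order, with 4 of 8, 4 of 16, 0 of 6 and 1 of 8 members. Sqstm1 was that 1 member with a signal above 1000.

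**Figure D2:**
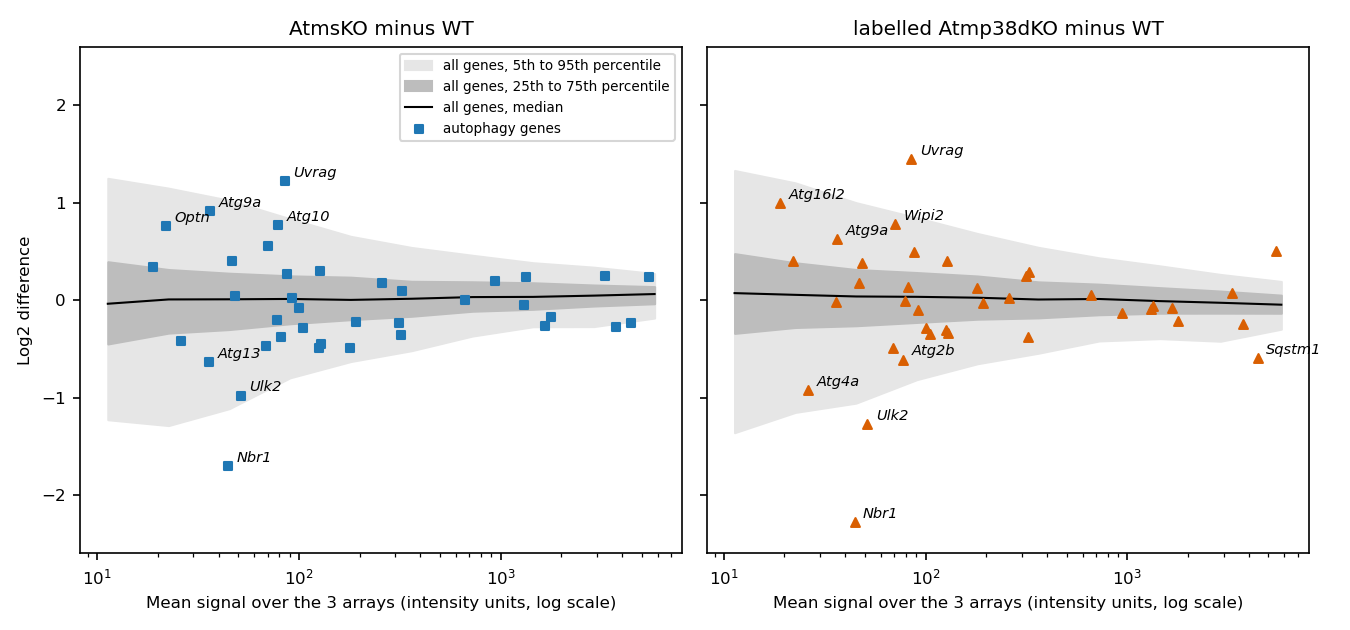
Log2 difference from the WT array (y axis) against the mean signal over the 3 arrays (x axis, intensity units, log scale) for AtmsKO (left) and the Atmp38dKO-labelled array (right). Points are the 38 autophagy genes, named where they differed by at least 1.5-fold. The line and bands give the median and percentiles of all genes of like signal. Outside the 5th to 95th percentile of their signal bin are 4 members on the left, Nbr1, Uvrag, Sqstm1 and, at the band's edge, Gabarapl1. On the right they are 5, Nbr1, Uvrag, Ulk2, Sqstm1 and Atg16l1. By construction 5% of all genes lie outside at either end, so these counts do not set the members apart.

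The initiation complex was represented by Ulk2, a kinase that starts autophagy, Atg13 and Rb1cc1 (FIP200), its scaffold partners, and Ambra1, which helps to activate it and the lipid kinase. Of these 4 genes 3 were lower on the AtmsKO array and all 4 were lower on the Atmp38dKO-labelled array than on the WT array, with medians of -0.45 and -0.09, all at the brightest probe. Ulk2 had signals of 78.8, 37.9 and 37.9. Both mutant arrays thus lay below WT, by log2 differences of -0.98 and -1.27. Both Ulk2 probes lie on the same messenger RNA (NM_013881), the brighter at base 3581 (chr11:61591272-61591331, mm9, minus strand) and the other at base 3831, and they disagreed. At the second probe the signals were 18.96, 30.6 and 30.6, so both mutant arrays lay above WT, by 0.77 and 0.48. The opening 30 of the 60 bases of each probe are shown, since the direction for Ulk2 depends on which is read.
Ulk2, the brightest probe: tattgaaagaagattgtcagcactctgctg
Ulk2, the second probe: catagaagcagaacaaaaagttttccacat

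Atg13 had signals of 39.1, 23.9 and 44.9, lower on the AtmsKO array than on both others. The log2 difference was -0.63 for AtmsKO against WT and 0.62 between both mutant arrays. Its second probe, the one on the RefSeq mRNA, went the other way in both, by 0.28 and -0.24. Rb1cc1, read by 6 probes that were well above background on all arrays, had signals of 1726, 1360 and 1891 at the brightest, which crosses an exon junction. Its differences from WT were -0.27 and -0.08, and those of its other probes ran from -0.41 to 1.14 and from -0.02 to 0.56. Ambra1 had signals of 90.7, 87.3 and 98.4, and differed from WT by 0.02 and -0.10, but its second probe was above WT on both mutant arrays, by 0.89 and 0.73, at signals of 11.7, 20.6 and 22.4.

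The lipid kinase complex holds Pik3c3 (VPS34), the PI3-kinase itself, its regulatory subunit Pik3r4 (VPS15), Becn1 (beclin 1), and the alternative subunits Atg14, which directs it to autophagosome formation, and Uvrag, which directs it to endosomes and later steps. Uvrag had signals of 40.03, 88.6 and 127 at its brightest probe (NM_178635, chr7:106035448-106035507, mm9, minus strand). Both mutant arrays lay above WT, by 1.22 and 1.45 on the log2 scale. At the second probe, on a cDNA of this gene, the signals were 25.1, 12.7 and 26.1, with differences of -0.91 and -0.16. Neither mutant array was thus above WT there. The remaining probe had signals of 11.53 on the WT and 20.3 on the Atmp38dKO-labelled array, a difference of 0.60 in the direction of the brightest, and was not well above background with AtmsKO. The probes are shown because Uvrag, the 1 member at least 2-fold higher on a mutant array, passed 2-fold at the brightest of its probes alone.
Uvrag, the brightest probe: agtgtgcagaccacgagacagttgagatag
Uvrag, the second probe: gtatctgggctcatgatatttataccctaa

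At the brightest probe the other 4 subunits differed by less than 1.5-fold in each comparison. Becn1, read by a single probe across an exon junction, had signals of 82.0, 56.1 and 67.9, lower than WT on both mutant arrays by -0.47 and -0.49 on the log2 scale. Pik3c3 stood at 106, 94.8 and 101, and Atg14 at 41.5, 40.7 and 62.9. Pik3r4 had 295, 238 and 406 at its brightest probe, with differences from WT of -0.23 and 0.25. Its next probe, the one on the RefSeq mRNA, turned both signs, to 0.83 and -0.24, and the one after gave -0.04 and 1.44.

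Membrane supply and PI3P binding rest on Atg9a, the transmembrane protein of the seed vesicles, Atg2a and Atg2b, which transfer lipid to the growing membrane, and Wipi1 and Wipi2, which read PI3P. Atg9a had signals of 23.9, 42.7 and 42.9, so both mutant arrays were above WT, by 0.91 and 0.62, at its only probe. Atg2b was lower on both mutant arrays at each of its 3 probes. The brightest had signals of 90.1, 74.3 and 68.6 with differences of -0.20 and -0.61, and the other probes gave -0.58 and -0.86 for AtmsKO and -1.08 and -0.42 for the Atmp38dKO-labelled array. Wipi1 was higher on both mutant arrays at each of its 3 probes, which ran from 0.31 to 0.41 for AtmsKO and from 0.18 to 1.14 for the Atmp38dKO-labelled array. Its brightest probe had signals of 39.4, 49.3 and 51.6. Wipi2 was at 48.3, 67.5 and 96.5 at the brightest probe, above WT by 0.56 and 0.78, but its other probes were below WT, down to -0.48 and -1.72. Its probe on the RefSeq mRNA (NM_178398), which the brightest is not on, gave -0.08 and -0.22. Atg2a had signals of 145, 97.6 and 136 and differed from WT by -0.49 and -0.31.

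Conjugation uses Atg7 as the activating enzyme, Atg3 and Atg10 as the transfer enzymes, Atg12 and Atg5 as the conjugated pair, and Atg16l1 with its relative Atg16l2 as the anchor that brings them to the membrane. Of these 7 genes 5 were above WT with AtmsKO and 4 with the Atmp38dKO-labelled array, and none reached 2-fold. Atg10 had signals of 62.9, 102 and 72.4, the AtmsKO array standing above both others, with a difference from WT of 0.77 there and of -0.01 on the Atmp38dKO-labelled array. Its second probe gave 0.40 and 0.60. Atg16l2, close to background at 12.6, 15.2 and 29.2, was above WT by 0.34 and 0.99. Atg7 was at 148, 102 and 136, below WT on both mutant arrays at both probes, by -0.45 and -0.34 at the brightest and by -0.50 and -0.02 at the other. Atg3 had 103, 120 and 158, Atg5 117, 90.7 and 107, and Atg12 631, 601 and 759, with differences from WT between -0.35 and 0.40.

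The probes of Atg16l1 disagreed widely. At the brightest probe, taken from a cDNA and on no RefSeq mRNA, the signals were 4341, 4868 and 7148, both mutant arrays above WT, with differences from WT of 0.24 and 0.50. The second probe begins 13 bases further on and shares 43 bases with it, and its signals of 452, 498 and 642 gave 0.22 and 0.29. The third probe, on the RefSeq mRNA (NM_029846), had 117, 22.2 and 140, the AtmsKO array being low there, by -2.32 against WT, and the mutant arrays differed by 2.37. All 3 lie on the plus strand of chromosome 1 (mm9), at 89685064, 89685077 and 89688896. RefSeq (GRCm38.p6) places 2 guide RNA genes, Scarna6 and Gm25395, inside Atg16l1, and whether any probe reads them was not tested. The opening 30 bases of the probes are shown to make the overlap visible, with the 17 of the shared bases that fall in them in capitals.
Atg16l1, the brightest probe: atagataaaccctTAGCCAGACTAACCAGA
Atg16l1, the second probe: TAGCCAGACTAACCAGAgggcgtagagaca
Atg16l1, the third probe: aagttgagattcgctggccagggcacatct

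Atg4a, Atg4b, Atg4c and Atg4d encode the proteases that trim LC3 and GABARAP before conjugation and free them afterwards. Atg4a, an X-linked gene with a single probe, had signals of 33.8, 24.0 and 20.7, both mutant arrays below WT, with differences from WT of -0.42 and -0.92. Atg4b had 69.6, 79.5 and 114, with differences of 0.27 and 0.49 at the brightest of 4 probes, and its other probes gave -0.03, -0.40 and -0.49 for AtmsKO and -0.15, 1.23 and -0.78 for the Atmp38dKO-labelled array. Atg4c had 81.8, 59.5 and 104 at the brightest of 3 probes, where AtmsKO lay below WT by -0.38, while the other probes gave 0.99 and -1.71. On the Atmp38dKO-labelled array all 3 probes of Atg4c were above WT, by 0.13, 0.80 and 0.22. Atg4d had 196, 160 and 222 and differed by -0.22 and -0.03.

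The LC3 and GABARAP family, which is bound to the autophagosome membrane and serves as its usual marker, has 5 genes among the members. At the brightest probe none differed from the WT array by 1.5-fold on either mutant array. Apart from Map1lc3a they had mean signals above 1000, where 0.819% (AtmsKO) and 2.16% (Atmp38dKO-labelled array) of all genes passed 1.5-fold. That none passed therefore does not set the family apart. In that class the median size of the log2 difference from WT was 0.24 and 0.15 over its 8 members, beside 0.11 and 0.12 over all genes. Map1lc3b had signals of 1873, 1571 and 1872 at the brightest probe, and all 3 of its probes were below WT on both mutant arrays, by -0.18 to -0.60 for AtmsKO and by -0.22 to -0.57 for the Atmp38dKO-labelled array. Gabarapl1 had 4047, 3178 and 3956 and was below WT by -0.27 and -0.25, and its second probe was also below WT, by -0.07 and -0.31. Gabarap was at 1304, 1195 and 1419 and Gabarapl2 at 1246, 1392 and 1385, with differences between -0.09 and 0.24. A dim second probe of Gabarap (12.1, 9.18 and 22.1) gave -0.32 and 0.65, and the 2 other probes of Gabarapl2 well above background on all arrays gave 0.23 and 0.11 and, at the dimmer (45.4, 50.5 and 94.7), 0.23 and 0.85. Map1lc3a, at 184, 124 and 233, was the 1 family member that passed 1.5-fold between the mutant arrays, by 0.62, and it has no second probe.

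Cargo receptors and mitophagy genes were Sqstm1 (p62) and Nbr1, which carry ubiquitinated cargo to LC3, Optn (optineurin), a receptor for damaged mitochondria, and Pink1, the kinase that marks them. Sqstm1 had signals of 5155, 4156 and 3958, so both mutant arrays lay below WT, by -0.23 and -0.60 on the log2 scale. The fold on the Atmp38dKO-labelled array was 1.51, at a signal where 2.16% of all genes passed 1.5-fold. All 3 probes agreed for this array, with differences of -0.60, -0.51 and -1.61, whereas for AtmsKO they gave -0.23, 0.06 and 0.25. Between both mutant arrays the 3 probes were also lower on the Atmp38dKO-labelled array, by -0.36, -0.58 and -1.86. The third probe was dim, at 20.2, 22.7 and 7.68, so the size of its differences is limited by its distance from background. Among 14 reference genes, which differed from WT on that array by between -0.59 and 0.19, 1 passed 1.5-fold as well. The 3 probes lie at bases 1954, 1090 and 2613 of the transcripts in the files and are shown as the set that agreed.
Sqstm1, the brightest probe: cacaggacccccatgtagcttcctctgact
Sqstm1, the second probe: tgtcttcaaaagaagtggacccatctacag
Sqstm1, the third probe: accccgttaccctgacctgataaatcccat

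Nbr1 had the widest range of any member, with signals of 87.3, 25.4 and 20.9 at the brightest probe (chr11:101418384-101418443, mm9, plus strand). Both mutant arrays lay far below WT, by -1.71 and -2.28, a fold of 3.26 and 4.86. This probe sits at base 156 of an Ensembl transcript (ENSMUST00000136185) and on no RefSeq mRNA. At the second probe (NM_008676) the signals were 45.4, 31.0 and 52.1 with differences of -0.47 and -0.02, and at the third (NM_001252222) they were 30.5, 21.3 and 24.4 with -0.44 and -0.54. The AtmsKO array was therefore below WT at all 3 probes, but past 1.5-fold at the brightest alone. The probes are shown since their differences were of unlike size.
Nbr1, the brightest probe: tggctattgaggaagcagtggggtcctgtt
Nbr1, the second probe: aaatgggattctgcgacaggcagctgaacc
Nbr1, the third probe: caggttactctaaatgtgacttttaaaaat

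Optn was dim, at 15.98, 25.7 and 24.5, above WT by 0.76 and 0.40, and its second probe gave -0.28 and 0.02. Pink1 had 368, 272 and 328 and was below WT on both mutant arrays at both probes, by -0.36 and -0.38 at the brightest and by -0.37 and -0.56 at the other.

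**Figure D3:**
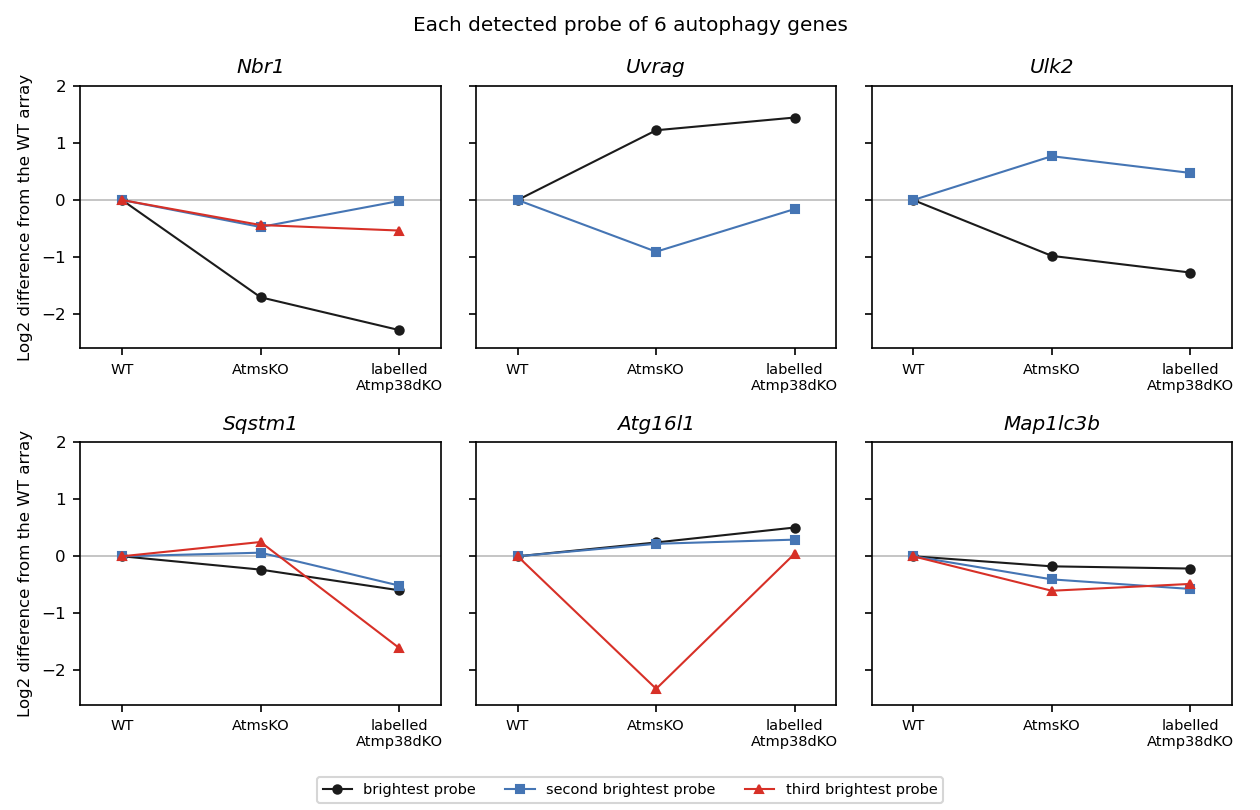
Log2 difference from the WT array (y axis) on the 3 arrays (x axis) for each probe well above background on all arrays of Nbr1, Uvrag, Ulk2, Sqstm1, Atg16l1 and Map1lc3b, with 1 line per probe and the WT array at 0. The lines of Sqstm1 all end below 0 and those of Map1lc3b stay below 0, while the lines of Uvrag and Ulk2 part in opposite directions and the third probe of Atg16l1 dips to -2.32 on the AtmsKO array.

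Tfeb and Tfe3, the transcription factors that switch on lysosomal and autophagy genes, and Lamp1 and Lamp2, proteins of the lysosomal membrane, were the last group. On the AtmsKO array all 4 were above WT, by 0.09 to 0.25, and none passed 1.5-fold in any comparison at the brightest probe. Lamp1 had signals of 2945, 3323 and 3607 and was above WT on both mutant arrays at both probes, by 0.25 and 0.08 at the brightest and 0.49 and 0.27 at the other. Lamp2 was at 892, 970 and 946, with differences of 0.20 and -0.13, beside 0.01 and -0.13 at its second probe and 0.64 and 1.04 at its dimmest (19.3, 28.6 and 46.2). Tfeb had 239, 257 and 282 (0.18 and 0.02), and its other probes ran from -0.51 to 0.27 for AtmsKO and from -1.04 to 0.55 for the Atmp38dKO-labelled array. Tfe3 had 285, 287 and 405 (0.09 and 0.29), and its second probe, at 24.8, 16.4 and 16.03, had the opposite sign in both comparisons (-0.52 and -0.85).

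Agreement between probes was counted over the members with at least 2 probes well above background on all arrays, which were 26. For AtmsKO against WT all probes were higher for 6 of them and lower for 7, and for 13 they disagreed. For the Atmp38dKO-labelled array against WT the counts were 5, 7 and 14, and between the mutant arrays 3, 5 and 18. By sign alone, lower at all probes on both mutant arrays were Atg2b, Atg7, Gabarapl1, Map1lc3b, Nbr1 and Pink1, and higher at all probes on both were Lamp1 and Wipi1. The second probes of Atg7 and Nbr1 each differed from WT by only -0.02 on the Atmp38dKO-labelled array, less than the spot SD of 0.05. Both comparisons share the WT array. The counts by gene were not made for all genes, so they do not set the members apart. Over all genes a second or further probe had the sign of the brightest in 52.9%, 53.6% and 54.4% of cases in the 3 comparisons, and over the members in 56.5%, 59.2% and 51.1%.

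**Figure D4:**
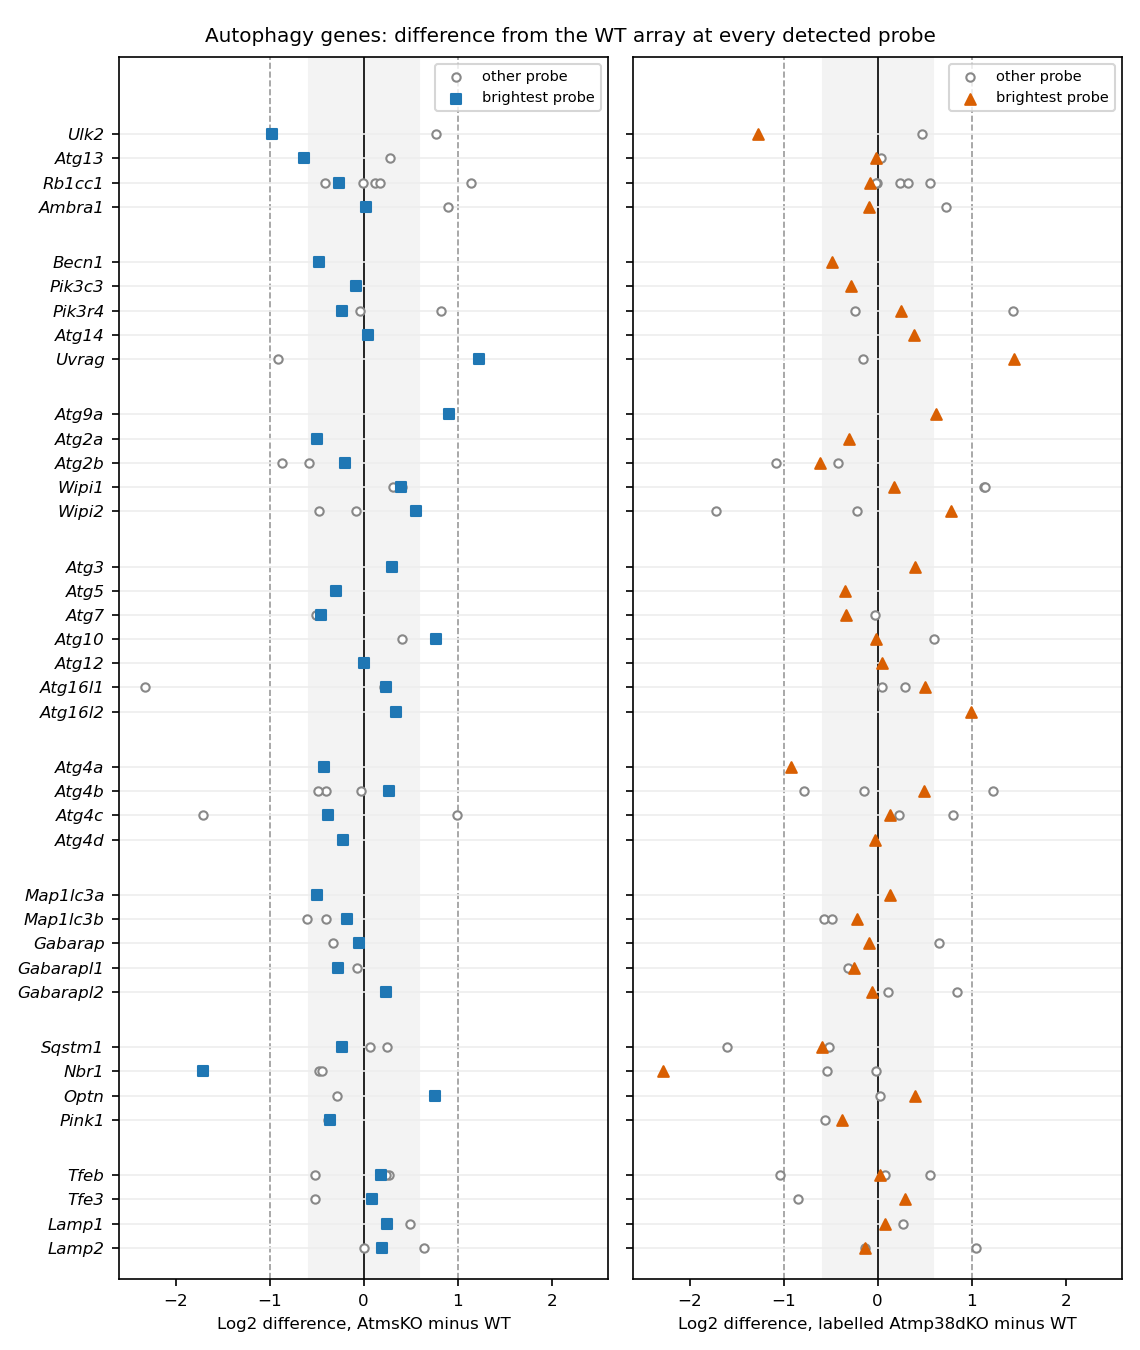
Log2 difference from the WT array (x axis) of the 38 autophagy genes (y axis, same order as in the plot of levels) for AtmsKO (left) and the Atmp38dKO-labelled array (right). Filled marks are the brightest probe and open circles the other probes well above background on all arrays. The shaded band marks differences under 1.5-fold and dashed lines mark 2-fold. Open circles far from the filled mark are, among others, those of Uvrag, Ulk2, Wipi2 and Nbr1, and on the left the third probe of Atg16l1.

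TFEB and TFE3 bind the E-box CACGTG, and TCACGTGA, which contains it, is the core of the element found in many lysosomal promoters. Both are palindromes and read the same on either strand. Promoters from RefSeq (GRCm38.p6, 250 bases before to 50 after each gene's start) were given for 32 of the 38 members. TCACGTGA was found in 1 of these genes, Atg3, and in 1.12% of the 27025 genes with a promoter, and in 5 of 21 genes of a separate lysosome list. CACGTG was found in 5 members, Atg3, Atg5, Atg7, Atg14 and Lamp1, or 15.6%, beside 8.09% of all genes. Lamp1 held 4 copies, starting 61, 45, 28 and 15 bases before its start. Atg3 held copies starting 94 and 71 bases before its start, the latter within TCACGTGA. The 5 members did not share a direction at the brightest probe. Atg3, Atg14 and Lamp1 were above WT on both mutant arrays, and Atg5 and Atg7 were below it. Atg14 was above by only 0.05 for AtmsKO, and Lamp1 by only 0.08 on the Atmp38dKO-labelled array. Whether the motif bears on these values was not tested. A window of 30 bases is shown for each, with the motif in capitals, to let the promoters be set against those values.
Atg3, chr16:45158746-45158775, plus strand: ggagagtcgagTCACGTGAggccttaggtg
Atg5, chr10:44268313-44268342, plus strand: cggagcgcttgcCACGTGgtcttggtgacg
Atg7, chr6:114670952-114670981, plus strand: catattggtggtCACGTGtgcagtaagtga
Atg14, chr14:47568418-47568447, minus strand: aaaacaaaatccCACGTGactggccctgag
Lamp1, chr8:13159088-13159117, plus strand: agggcaagatatCACGTGgtccagcgccca

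Other genes of the pathway came from 4 lists that hold no member, to be read beside the shares of all genes given above for each comparison. Of 24 further autophagy genes 0 were at least 2-fold higher and 1 was at least 2-fold lower for AtmsKO against WT, with a median of 0.01. Rubcn (Rubicon), which restrains the Uvrag form of the lipid kinase, was the 1 lower gene, at 307, 135 and 244, by -1.11. For the Atmp38dKO-labelled array against WT 1 was higher and 2 were lower, with a median of -0.14. Vps33a, a subunit of the tethering complex for fusion with the lysosome, had signals of 43.7, 45.3 and 126 (1.32), Snap29, a fusion protein, 17.0, 12.6 and 6.87 (-1.52), and Wdr45b, a relative of the Wipi proteins, 113, 127 and 64.9 (-1.01). Between both mutant arrays 1 was higher (Vps33a, 1.19) and 3 were lower on the Atmp38dKO-labelled array (Wdr45b -1.26, Snap29 -1.17 and Atg101, a partner of Atg13 named after its value was seen, -1.04), a share of 12.5% lower beside 3.73% of all genes, with a median of -0.03. The only other probe of Vps33a and that of Wdr45b had the opposite sign against WT. Of 16 further receptor and mitophagy genes none passed 2-fold for AtmsKO against WT and 1 did on the Atmp38dKO-labelled array, Usp30, which was too dim on the WT array to be well above background and is named here after its value was seen. For AtmsKO against WT 12 of these 16 genes were lower (median -0.13), and between the mutant arrays 12 were higher on the Atmp38dKO-labelled array (median 0.15), with a median of 0.05 for that array against WT. Of all genes 51.0% were higher for AtmsKO against WT, and 49.5% were higher on the Atmp38dKO-labelled array between the mutant arrays. Whether these 16 genes shifted together was not tested.

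Of 27 lysosomal genes none was 2-fold higher and 1 was 2-fold lower for AtmsKO against WT, Lipa, the lysosomal acid lipase, at 80.4, 37.0 and 70.9 (-1.04). None passed 2-fold on the Atmp38dKO-labelled array against WT. Naglu, a lysosomal glucosaminidase, passed between the mutant arrays at 107, 50.9 and 155 (1.31). Medians of the list lay between -0.01 and 0.05. Of 21 nutrient and FoxO regulators 1 was higher and 2 were lower for AtmsKO, namely Rptor, the mTORC1 subunit, at 25.5, 68.6 and 8.35 (1.505), Prkaa2, a catalytic subunit of AMPK, at 96.6, 25.4 and 71.2 (-1.85), and Mitf, a relative of Tfeb, at 70.7, 30.4 and 76.9 (-1.14). Rptor was lower than WT on the Atmp38dKO-labelled array, by -1.83, and there its 3 other probes had the same sign, while for AtmsKO 1 of the 3 did. Between the mutant arrays Prkaa2 (1.20) and Mitf (1.05) were at least 2-fold higher and Rptor (-3.33) lower on the Atmp38dKO-labelled array. The list's medians were -0.09, 0.01 and 0.08 in the 3 comparisons.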

How the data were processed

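The authors' contractor scanned the arrays and ran Agilent Feature Extraction 11.5.1.1, and the deposited intensity values are its background-subtracted, spatially detrended processed signals, not normalized between arrays. The authors also deposited log2 values, which equaled log2 of a probe's mean processed signal minus the array's 75th percentile within 0.02 for 99.6% to 99.8% of probes. Slide and scan were common to all 3 arrays. The methods add CD41-negative to the sort in the labels, and the series text names CD34 and Flt3 alone.

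Here control spots and outlier spots (57 to 83 per array) were left out and spots of a probe averaged. The measure was log2 of the processed signal minus the 75th percentile of the 56605 non-control probes of that array, and 68.9% to 77.7% of these were well above background. Dim values were raised to the lowest signal well above background. RefSeq accessions named 32994 probes, and the others kept the name in the files. The probe with the highest mean signal stood for its gene, which counted as past a fold of 2 or 1.5 if well above background on the brighter array. Genes named outside the 38 are, of each pathway list and comparison, up to 2 rises and 2 falls of at least 2-fold, well above background on both arrays. The members and lists were chosen with earlier results of these data known. Functions were tested on simulated data. Alternatives included normexp (limma 3.58.1, offset 50) and quantile normalization; other steps used Python 3.11.15 and pandas 2.3.3. The number of arrays, 1 per group, limits the precision of every value.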

Additional observations from a re-analysis of the deposited data

How the results depend on the processing

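No paired analysis was possible because no genotype was hybridized more than once, which also leaves no array to drop. Of 33 medians recomputed under 11 alternatives 32 moved by less than 0.08 on the log2 scale, and the median for the Atmp38dKO-labelled array against WT became 0.078 with the mean of detected probes. Of 1140 differences of single members 914 moved by less than that and 222 by more. Uvrag turned to -0.17 for AtmsKO against WT with the mean of detected probes and to -0.91 at its second brightest probe, and for the Atmp38dKO-labelled array to -0.16 there, where Ulk2 turned to 0.48. Members at least 2-fold higher and lower became 0 and 0 for AtmsKO against WT with normexp, which compresses low signals by its offset, with the mean of detected probes and at the second brightest probe. They became 0 and 1 with normexp and 0 and 0 with the mean of detected probes for the Atmp38dKO-labelled array against WT. Between the mutant arrays 2 were lower at the second brightest probe. Counting every probe on its own gave 2 higher and 4 lower, 6 and 6, and 6 and 3 in the 3 comparisons, from up to 91 probes of the members. The share of all probes past 2-fold is not given beside these counts, so they do not show more change among the members. The brightest probe on a RefSeq mRNA, an alternative chosen after seeing the data, left 1 lower for the Atmp38dKO-labelled array against WT and gave 1 higher and 1 lower between the mutant arrays. Members under a signal of 50 are limited by their distance from background.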

Other observations

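Atg101, which pairs with Atg13 in the initiation complex and was not among the 38 genes, had signals of 778 (WT), 772 (AtmsKO) and 459 (the Atmp38dKO-labelled array). The last stood below both others, by log2 differences of -0.98 and -1.04. No other probe of the gene was well above background in these comparisons, so the values rest on a single probe. Among all genes with a mean signal from 200 to 1000 the size of the difference stayed under 0.53 and 0.50 in 90% of genes in the same comparisons. The gene was picked after its values were seen.

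Rptor had the largest difference between both mutant arrays in the pathway lists, -3.33 on the log2 scale. It was picked for that size after its values were seen. Its 3 other probes well above background had the same sign, but the size of their differences was not compared. Its signal on the Atmp38dKO-labelled array was 8.35, where the lowest signal well above background was 4.97, which limits the size of the difference. Among all genes with a mean signal under 50, as for Rptor, 27.2% passed 1.5-fold between the mutant arrays.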
